A study of Mus musculus with 24 samples.

Results

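The EGF receptor ligands and receptors described here were 10 genes of the count table: the ligand genes *Areg*, *Ereg*, *Btc*, *Hbegf*, *Tgfa* and *Epgn*, the receptor genes *Egfr*, *Erbb2* and *Erbb3*, and the inhibitor gene *Errfi1*. They were taken by gene name from the 55487 genes in the table. The family was chosen by its function after a rise of *Areg* under palmitate had been seen in these data. The values of palmitate against carrier are therefore given for each gene as a description, without a *P* value. Nothing is read from how many of the genes passed a threshold in that contrast.

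EGF receptor ligands are made as membrane-anchored precursors and are released by cutting, for several of them by the protease ADAM17. They bind EGFR, which pairs with itself or with ERBB2 or ERBB3 and starts the RAS, RAF and ERK kinase cascade. ERBB2 has no known ligand of its own, and ERBB3 binds neuregulins and has little kinase activity. ERRFI1, also named MIG6, binds the kinase domain of EGFR and blocks it, and its gene is itself induced by receptor signaling. In the liver, hepatocytes carry abundant EGFR, and the family is best known for its part in regeneration and in the response to injury.

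RNA of AML-12 cells, an immortal mouse hepatocyte line, was measured by BRB-seq, which barcodes each sample early and sequences the 3′ end of mRNA. There were 24 libraries in 6 groups of 4. The BSA group was given only albumin, the carrier, whereas PAL was given the saturated fatty acid palmitate at 0.25 mM, bound to albumin. The other groups were also on 0.25 mM palmitate and were transfected for 24 hours with esiRNA, a pool of short interfering RNAs made by enzymatic cutting: 200 nM against *Egfp* in CON, 100 nM against *Bmal1* in BMAL1, 100 nM against *Chrebp* in CHREBP, and both together at a total of 200 nM in BOTH. No transfected group without palmitate was analyzed here. BMAL1 is the core activator of the circadian clock, and CHREBP is a glucose-sensing transcription factor. The groups were compared to see what palmitate, transfection and each silencing did to gene expression.

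AML-12 is a single line that was established from a mouse carrying a human TGFA transgene. How far transcripts of that transgene were counted as mouse *Tgfa* was not tested. The RNA is from bulk cultures, so fewer cells of one kind and less RNA per cell cannot be told apart. Nothing in the labels ties the libraries of a group to separate cultures, and the *P* values then measure only the spread between these libraries.

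The libraries held 5399700 to 11237474 counts in genes, and 3 counts, taken as the smallest detectable number, corresponded to a normalized count of 2.02 to 4.24. Of the 7 hepatocyte genes, *Hnf4a*, *Ttr*, *Serpina1a*, *Krt8* and *Krt18* had at least 746 counts in every library, *Alb* had only 86 to 242, and *Apoa1* had 2 to 15, at the limit of detection. Of the 5 bile duct genes, *Krt7*, *Krt19*, *Sox9* and *Spp1* had at least 223 counts in every library, and *Epcam* had 0 to 2. Markers of other cell types were low: of 12 genes for stellate cells or fibroblasts, endothelium and leukocytes, *Lrat*, *Pdgfrb*, *Kdr* and *Adgre1* were at 0 in all 24 libraries, and the highest, *Cd68*, had 5 to 27 counts. The *Bmal1* transcript, listed as *Arntl*, averaged 44.7 ± 11.6 (SD, n = 4) normalized counts in CON, 26.0 ± 4.82 in BMAL1 and 22.8 ± 6.64 in BOTH. The *Chrebp* transcript, listed as *Mlxipl*, averaged 35.6 ± 7.26 in CON, 25.9 ± 4.75 in CHREBP and 17.0 ± 4.91 in BOTH. In BOTH against CON both targets were called lower (log2 fold change of *Arntl* −0.98, SE 0.28, DESeq2 *Padj* = 0.00994, and of *Mlxipl* −1.07, SE 0.30, *Padj* = 0.00762). In the single silencings *Arntl* had a log2 fold change of −0.78 (SE 0.28), for which DESeq2 gave an unadjusted *P* of 0.00496 and no adjusted *P*, and *Mlxipl* had one of −0.46 (SE 0.28, *Padj* = 0.593). By the library positions, column 1 held BSA with PAL, column 2 held CON with BMAL1, and column 3 held CHREBP with BOTH, so that column cannot be told apart from transfection in CON against PAL, or from *Chrebp* esiRNA. BSA, CON and CHREBP were in rows A to D and the others in rows E to H. Row therefore cannot be told apart from palmitate in PAL against BSA, from transfection in CON against PAL or from *Bmal1* esiRNA. CON and BOTH, at equal total dose, differed in both column and row.

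Of the 10 genes, 9 had a summed count of at least 25 and were tested. *Epgn*, the gene of epigen, had 0 to 2 counts per library and was at 0 in 17 of 24 libraries, which is below what these libraries can resolve. *Erbb3* had 0 to 16 counts and was at 0 in 4 libraries. Its mean normalized count ran from 1.07 ± 1.63 in CHREBP to 6.22 ± 3.29 in BSA, and all neighbors in that order overlapped. The other 8 genes had at least 11 counts in every library, with *Egfr* at 1544 to 3882 counts, *Areg* at 20 to 175 and *Btc* at 31 to 183. Counts from the 3′ end also depend on where each transcript ends, and levels are therefore compared between groups and not between genes.

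On the genome (GENCODE annotation, GRCm38), *Epgn*, *Ereg*, *Areg* and *Btc* lie in that order within 376 kb of chromosome 5, and no other protein-coding gene lies in that span. *Areg* spans chr5:91139599-91148432 and *Btc* spans chr5:91357261-91402994. *Areg* is read on the plus strand and *Btc* on the minus strand, and the gap between them is 208.8 kb. Neither gene overlaps another annotated gene. *Ereg*, *Tgfa*, *Egfr*, *Erbb2* and *Errfi1* each overlap at least 1 gene on the other strand, and the strand setting of the counting was not given in the sources used here, so reads of those partners cannot be told apart from theirs.

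Promoter sequence, from 250 bases before the start to 50 bases after it, was in the RefSeq table (GRCm38.p6) for 7 of the 10 genes, with 8 promoters. *Ereg*, *Hbegf* and *Erbb3* had no entry. The promoters were searched on both strands for the E-box CACGTG bound by BMAL1, the AP-1 site TGAGTCA, the cAMP response element (CRE) TGACGTCA and the TEAD site GGAATG, none of which holds another of them. The CRE was present in the promoter of *Areg*, beginning 61 bases before the start (chr5:91139349-91139648, plus strand), and in that of 1 of the 2 *Errfi1* starts, beginning 51 bases before it (chr4:150854820-150855119, plus strand). Among all 32851 promoters in the table, 1.79% held it. Both are shown because *Areg* had the largest fold change of the family under palmitate and *Errfi1* was lower, and the capitals mark the CRE.
Areg: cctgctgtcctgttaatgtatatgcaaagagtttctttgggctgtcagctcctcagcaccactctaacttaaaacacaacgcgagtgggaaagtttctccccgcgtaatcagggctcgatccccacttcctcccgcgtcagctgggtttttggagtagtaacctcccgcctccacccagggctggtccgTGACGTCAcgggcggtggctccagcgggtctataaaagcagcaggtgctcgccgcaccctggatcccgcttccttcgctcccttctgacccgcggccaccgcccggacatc
Errfi1: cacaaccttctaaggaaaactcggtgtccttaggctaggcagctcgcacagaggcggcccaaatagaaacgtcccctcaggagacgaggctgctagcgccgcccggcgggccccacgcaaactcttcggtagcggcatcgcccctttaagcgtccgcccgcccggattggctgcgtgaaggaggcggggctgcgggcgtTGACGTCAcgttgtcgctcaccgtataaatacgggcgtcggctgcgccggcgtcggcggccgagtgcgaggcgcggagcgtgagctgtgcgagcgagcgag
The TEAD site was in the *Erbb2* promoter and in that of the other *Errfi1* start, against 14.7% of all promoters. No promoter of the family held the E-box, which 7.15% of all promoters held, or the AP-1 site, which 5.2% held. The core of the interferon-stimulated response element (TTTCNNTTTC), searched after the values were seen, was in none of the 8 and in 3.44% of all promoters. These matches describe the letters of this window and say nothing about binding.

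Under palmitate, the ligand gene *Areg*, which encodes amphiregulin, was 2.95-fold higher than in carrier-treated cells, and *Hbegf*, *Egfr* and *Tgfa* were higher by less, while the inhibitor gene *Errfi1* was lower. *Areg* was at 41.1, 35.8, 34.3 and 28.3 normalized counts in the BSA libraries and at 121.5, 111.7, 95.0 and 88.6 in the PAL libraries. The lowest PAL library was more than 2 times the highest BSA library. The log2 fold change was 1.56 (SE 0.21). All 20 libraries that received palmitate, transfected or not, were above all 4 BSA libraries for *Areg*, the lowest of them at 57.6.

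**Figure D1:**
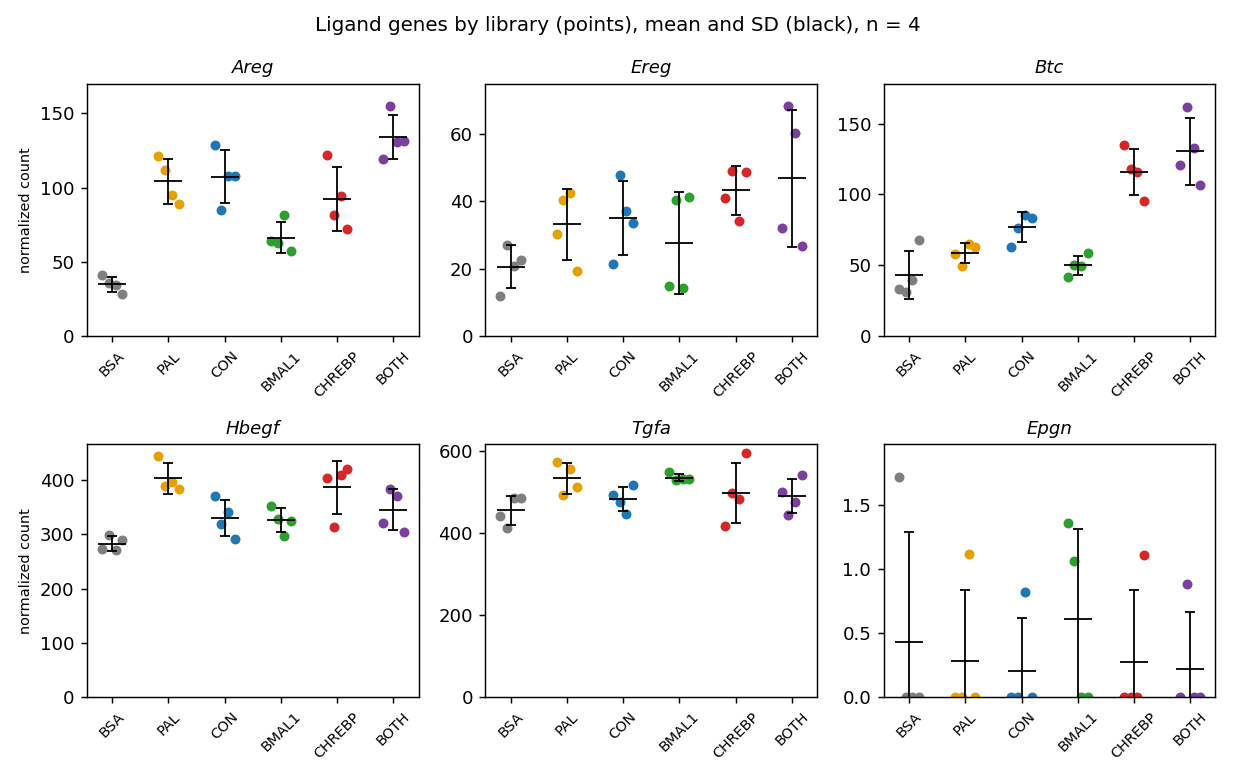
Normalized counts of the 6 ligand genes by group. Points are single libraries and black marks are the mean and SD of 4 libraries, on axes that start at 0. *Areg* was lowest in BSA with no overlap with any other group, *Btc* was highest in CHREBP and BOTH, and *Epgn* stayed below 2 normalized counts.

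*Hbegf*, the gene of heparin-binding EGF-like growth factor, was at 272.3, 299.8, 270.5 and 290.0 normalized counts in BSA and at 444.9, 389.3, 395.8 and 383.2 in PAL. The groups did not overlap, and the log2 fold change was 0.51 (SE 0.10). *Tgfa*, which encodes transforming growth factor alpha, averaged 456 ± 35.4 in BSA and 534 ± 37.3 in PAL, with a log2 fold change of 0.23 (SE 0.09), and the highest BSA library (485.2) lay just below the lowest PAL library (491.9). *Ereg*, which encodes epiregulin, was at 12.0 to 27.1 in BSA and 19.4 to 42.5 in PAL, and these ranges overlapped (log2 fold change 0.69, SE 0.35). *Btc*, which encodes betacellulin, was at 33.4, 30.9, 39.7 and 67.9 in BSA, where 1 library stood above the rest, and at 58.1, 49.3, 64.8 and 63.0 in PAL. These groups overlapped as well (0.49, SE 0.26), through BSA replicate 4 alone, and without it the log2 fold change was 0.77.

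Among the receptors, *Egfr* averaged 2161 ± 52.7 normalized counts in BSA and 2604 ± 164 in PAL, without overlap (log2 fold change 0.28, SE 0.06, a rise of 21.2%). As for *Areg*, all 20 palmitate libraries were above all 4 BSA libraries, with the highest BSA library at 2213 and the lowest palmitate library at 2425. *Erbb2* was at 496.5 to 543.8 in BSA and 521.1 to 582.2 in PAL (0.08, SE 0.08), and the groups overlapped. *Errfi1* was at 711.7, 798.8, 756.5 and 711.6 in BSA and at 598.0, 593.5, 628.4 and 656.9 in PAL. It was lower in every PAL library than in any BSA library (−0.26, SE 0.08), and 15 of the 20 palmitate libraries were below all 4 BSA libraries. In that contrast 7 of the 9 genes had a fold change above 0. At an adjusted *P* under 0.1, 5 of the 9 were called, against 14.3% of all genes tested, and 5 did not overlap between the groups, against 15.1%. Nothing is read from these counts, since the contrast was used in choosing the family.

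**Figure D2:**
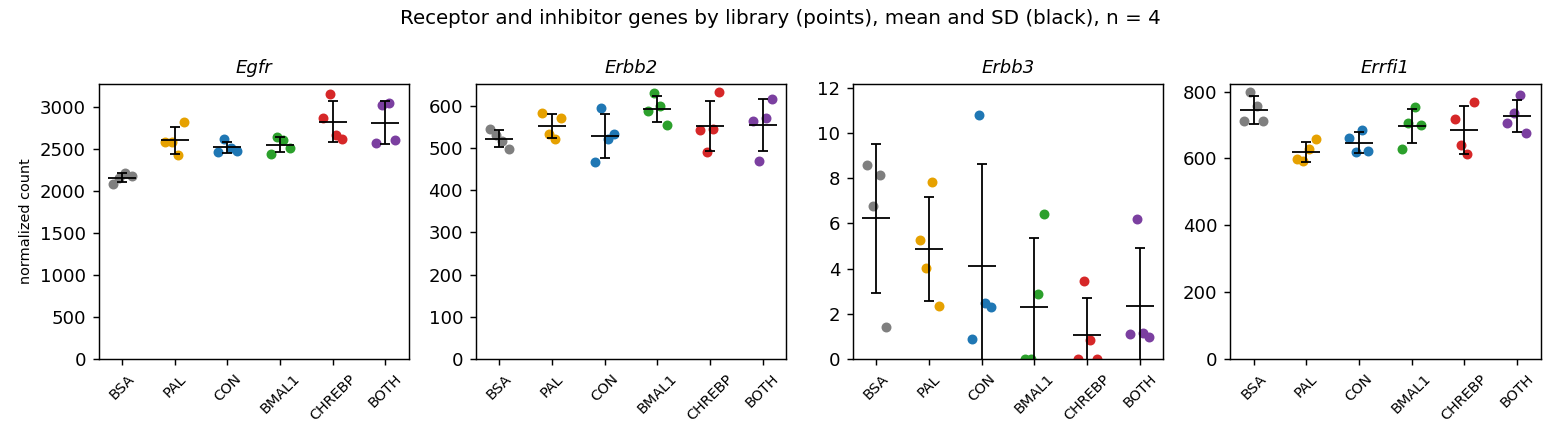
Normalized counts of the 3 receptor genes and *Errfi1* by group. Points are single libraries and black marks are the mean and SD of 4 libraries, on axes that start at 0. *Egfr* was lowest in BSA, *Errfi1* was lowest in PAL, and *Erbb3* was close to the detectable minimum.

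The rest of the pathway was followed with a fixed list of 50 genes for other family members, shedding proteases, signaling, feedback and targets of ERK. The list was drawn up with earlier results of these data known. Its calls in PAL against BSA are therefore a description, and nothing is read from their number. In PAL against BSA, 47 were tested and 16 were called (11 higher and 5 lower), where 14.3% of all genes were called, with a median log2 fold change of 0.04 against 0.00 over all genes. Of the 9 ERK target genes, 7 were called, with 6 higher. These included the transcription factor genes *Etv4*, *Etv5* and *Fosl1*. ERK activity was not measured in these libraries, and whether it changed was not tested. *Etv4* rose from 9.95 ± 3.52 to 31.8 ± 7.82 normalized counts (log2 fold change 1.63, SE 0.39, DESeq2 *Padj* = 7.27e-04). *Fosl1* rose from 85.0 ± 7.88 to 212 ± 31.6 (1.31, SE 0.16, *Padj* = 8.70e-15), and *Etv5* rose by a like amount (1.31, SE 0.40, *Padj* = 0.0143). *Egr1*, an immediate early target in the same list, was called lower. Of the 11 feedback genes, 4 were called (3 higher and 1 lower), among them *Spry2*, which restrains RAS signaling (0.76, SE 0.16, *Padj* = 6.54e-05). *Lrig1*, which promotes the degradation of EGF receptors, fell from 279 ± 19.1 to 140 ± 18.1 (−0.97, SE 0.13, *Padj* = 3.10e-12). Of the 21 signaling genes, 3 were called: *Hras* was higher, and *Stat3* and *Mapk3*, the gene of the kinase ERK1, were lower (*Mapk3* −0.37, SE 0.06, *Padj* = 1.79e-09). Of the 4 shedding genes *Rhbdf2*, a partner of ADAM17, was called lower. The neuregulin gene *Nrg1* was called higher, and *Nrg2*, *Nrg4* and *Erbb4* were too low to test.

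**Figure D3:**
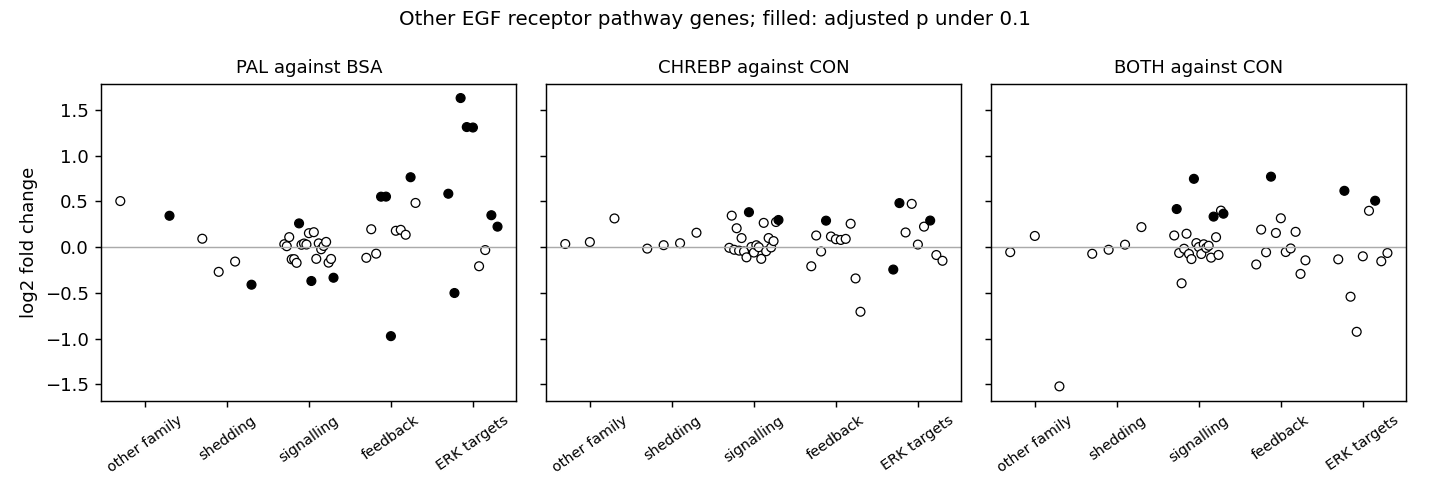
Log2 fold changes (y axis) of the tested genes of the 50-gene pathway list in 3 comparisons, split by role along the x axis. Each point is a gene, and filled points had a DESeq2 adjusted p under 0.1. The ERK targets spread widest in PAL against BSA, where 7 of 9 were called.

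The control transfection was compared with palmitate alone to see what transfection itself did. None of the 9 tested genes was called by DESeq2 in CON against PAL, where 2.51% of all genes were called, and 1 had an unadjusted *P* under 0.05. That gene was *Hbegf*, at 370.8, 319.0, 340.5 and 291.0 normalized counts in CON, with every library below the lowest PAL library (log2 fold change −0.28, SE 0.10, *Padj* = 0.129). It passed without CON replicate 1 (−0.34, *Padj* = 0.0583). *Hbegf* was the only one of the 9 without overlap, against 7.16% of all genes. The edgeR test also called none. *Areg* stayed within the spread between libraries (0.04, SE 0.17, *Padj* = 0.972), at 128.4, 85.0, 107.8 and 107.8 in CON. *Btc* was at 62.8, 76.2, 85.5 and 83.5 in CON (0.38, SE 0.20, *Padj* = 0.484), and its ranges overlapped those in PAL. Of the pathway list, 1 of 47 genes was called: *Ccnd1*, the cyclin D1 gene (−0.24, SE 0.08, *Padj* = 0.0651), a call that was lost without most of the single libraries.

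Over the 4 transfected groups, *Areg* and *Btc* were the genes of the family that differed. A DESeq2 likelihood ratio test over CON, BMAL1, CHREBP and BOTH called 2 of the 9 genes, *Areg* (*Padj* = 2.21e-05) and *Btc* (*Padj* = 8.84e-13), against 9.92% of all genes. *Areg* was lowest in BMAL1 and highest in BOTH, whereas *Btc* was lowest in BMAL1 and high in both CHREBP and BOTH. The other 7 genes were not called, but *Hbegf* was without CHREBP replicate 2 (*Padj* = 0.0951), and *Egfr* was without BOTH replicate 1 (*Padj* = 0.0988) or BOTH replicate 4 (*Padj* = 0.0633).

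With *Bmal1* esiRNA alone, at 100 nM against 200 nM in CON, *Areg* was lower than in CON, and the dose cannot be told apart from the silencing. The BMAL1 libraries were at 63.8, 62.7, 81.4 and 57.6 normalized counts, all below the lowest CON library (85.0), and the mean fell from 107 ± 17.7 to 66.4 ± 10.4. The log2 fold change was −0.68 (SE 0.19, *Padj* = 0.0596). It was the only one of the 9 genes called, against 0.490% of all genes. Over all genes the number of calls was 68 and ran from 16 (without CON replicate 3) to 107 (without CON replicate 1). The *Areg* call was lost in the edgeR test (*Padj* = 0.283) and with the replicate number as a block. It was also lost without CON replicate 1, which had the highest value (−0.59, *Padj* = 0.239). Over the libraries left out in turn the adjusted *P* ran from 0.0457 to 0.315. Among these fits the call was kept only without CON replicate 2 or BMAL1 replicate 3, and without CON replicate 3 DESeq2 gave no adjusted *P*.

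*Btc* was at 42.1, 49.9, 49.8 and 58.5 in BMAL1, also below every CON library, but did not pass the test (−0.61, SE 0.19, *Padj* = 0.138). It passed without CON replicate 1 (−0.69, *Padj* = 0.0762). *Tgfa* lay in a narrow range of 529.1 to 549.8 in BMAL1, above every CON library, and did not pass either (0.15, SE 0.10, *Padj* = 0.824). These 3 of the 9 genes did not overlap between the groups, against 5.43% of all genes. *Hbegf* (−0.02, SE 0.11) and *Egfr* (0.02, SE 0.07) differed by less than their standard errors. The pathway list had no call by DESeq2 and none under any of the alternatives. Of its genes, 6 of 48 had an unadjusted *P* under 0.05 by DESeq2. The share of all genes at that threshold is not given here, so nothing is read from that count.

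With *Chrebp* esiRNA alone, *Btc* was higher than in CON. Here too the total dose differed, at 100 nM against 200 nM, and cannot be told apart from the silencing. It was at 135.1, 117.9, 115.7 and 95.2 normalized counts in CHREBP, all above the highest CON library, and rose from a mean of 77.01 ± 10.3 to 116 ± 16.3. The log2 fold change was 0.59 (SE 0.17, *Padj* = 0.0229), the one call among the 9 genes, against 3.42% of all genes. The call was lost without CON replicate 1 (0.51, *Padj* = 0.161) or CHREBP replicate 1 (0.52, *Padj* = 0.169), the lowest and the highest library of the pair of groups. *Egfr* was at 2873, 3153, 2667 and 2619 in CHREBP, just above the highest CON library (2618), but did not pass (0.16, SE 0.07, *Padj* = 0.281). These 2 of the 9 genes did not overlap between the groups, against 8.58% of all genes. *Hbegf* had an unadjusted *P* under 0.05 but did not pass (0.22, SE 0.11, *Padj* = 0.414). Neither did *Areg*, at 121.8, 81.8, 94.5 and 72.0 in CHREBP (−0.21, SE 0.18, *Padj* = 0.774).

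With both esiRNAs, at the same total dose as CON, *Btc* was higher again and *Areg* reached its highest values. *Btc* was at 120.6, 161.8, 132.8 and 106.6 in BOTH, above every CON library (0.76, SE 0.17, *Padj* = 2.98e-04). It was the only call among the 9 genes, against 9.73% of all genes, and the only one without overlap, against 10.9%. It was called without each library in turn, with an adjusted *P* of 5.32e-05 to 0.00855. *Areg* was at 119.5, 154.7, 130.5 and 131.5 in BOTH, and since CON reached 128.4 the groups overlapped (0.33, SE 0.17, *Padj* = 0.302). *Egfr* averaged 2814 ± 258 and did not pass (0.16, SE 0.07, *Padj* = 0.208), though it did without BOTH replicate 1 (*Padj* = 0.0882) or BOTH replicate 4 (*Padj* = 0.0687).

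**Figure D4:**
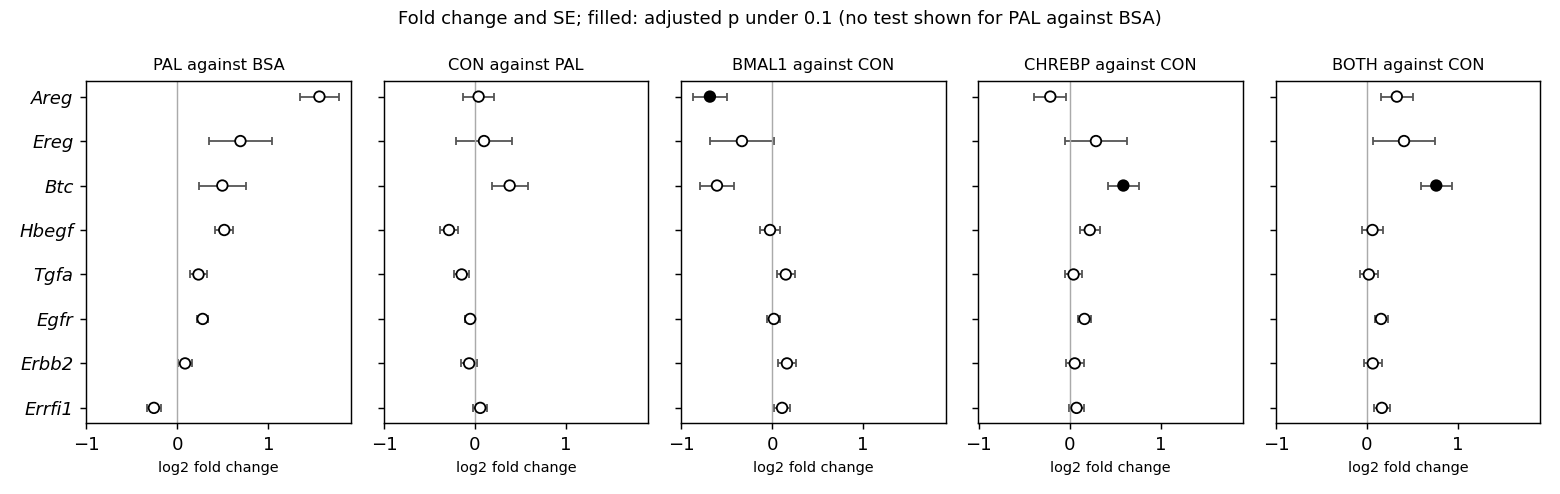
Log2 fold changes with SE for 8 of the genes (rows) in 5 comparisons (panels). Filled points had a DESeq2 adjusted p under 0.1, and no test is shown for PAL against BSA. *Areg* had the largest value under palmitate at 1.56 and was called lower in BMAL1, and *Btc* was called higher in CHREBP and BOTH.

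Adding *Chrebp* esiRNA to *Bmal1* esiRNA raised both genes. In BOTH against BMAL1, *Areg* was 2.02-fold higher (log2 fold change 1.01, SE 0.18, *Padj* = 1.75e-06) and *Btc* was 2.58-fold higher (1.37, SE 0.19, *Padj* = 1.08e-11). These 2 of the 9 genes were called, against 10.4% of all genes, and they were also the 2 that did not overlap, against 11.3%. Each was called without any one library. *Ereg*, at 14.9, 40.4, 14.4 and 41.1 in BMAL1 and 32.1, 68.1, 60.1 and 26.9 in BOTH, varied widely within groups and did not pass (0.74, SE 0.35, *Padj* = 0.214). It passed when 1 library, BOTH replicate 4, was left out (1.00, *Padj* = 0.0640). The total dose also differed here, at 200 nM in BOTH and 100 nM in BMAL1, and cannot be told apart from the *Chrebp* esiRNA.

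Adding *Bmal1* esiRNA to *Chrebp* esiRNA, which also raised the total dose from 100 to 200 nM, gave no call by DESeq2 among the 9 genes, against 0.994% of all genes, with 1 at an unadjusted *P* under 0.05, and edgeR gave none. That gene was *Areg*, which was called with all 24 libraries in one fit (*Padj* = 0.0961). *Areg* averaged 92.5 ± 21.6 in CHREBP and 134 ± 14.8 in BOTH (0.54, SE 0.18, *Padj* = 0.133). Its ranges touched only through CHREBP replicate 1, at 121.8, and without that library it was called (0.69, *Padj* = 0.0157). None of the 9 genes was free of overlap, against 3.41% of all genes. *Btc* differed little (0.17, SE 0.17, *Padj* = 0.873).

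The effect of *Bmal1* esiRNA on *Areg* therefore had opposite signs without and with *Chrebp* esiRNA (−0.68 and 0.54), and the difference itself was tested as an interaction. For *Areg* it was 1.23 on the log2 scale (SE 0.26, *Padj* = 1.37e-03). It was called in every leave-one-out fit that gave an adjusted *P* (15 of 16). For *Btc* it was 0.78 (SE 0.25, *Padj* = 0.0987), from −0.61 without to 0.17 with *Chrebp* esiRNA, and this call was lost under all 5 alternatives that kept every library (*Padj* of 0.104 to 0.183, edgeR and 4 DESeq2 fits) and in 9 of the 13 leave-one-out fits that gave an adjusted *P*. These were 2 of the 9 genes, against 1.47% of all genes. The total dose fell from 200 to 100 nM from CON to BMAL1 and rose from 100 to 200 nM from CHREBP to BOTH. The interaction and the dose cannot be told apart in this design.

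Of the pathway list, 6 of 48 genes were called in CHREBP against CON, where 3.42% of all genes were called, and 7 in BOTH against CON, where 9.73% were, all 7 of the latter higher. In BOTH against CON these included *Dusp5*, a phosphatase that acts on ERK in the nucleus (0.77, SE 0.10, *Padj* = 1.74e-13), and *Map2k1*, which encodes the kinase that activates ERK (0.75, SE 0.11, *Padj* = 1.24e-09). *Egr1* (0.61, SE 0.13, *Padj* = 5.29e-05) and *Myc* (0.51, SE 0.06, *Padj* = 6.58e-15) were also higher, and no other ERK target gene was called there. Of those not called, *Ier3* was above 0 (0.40). *Etv5* (−0.93), *Etv4* (−0.54), *Phlda1* (−0.16), *Ccnd1* (−0.13), *Fosl1* (−0.10) and *Plaur* (−0.07) were below 0. In CHREBP against CON the ERK target gene *Ccnd1* was called lower (−0.25, SE 0.06, DESeq2 *Padj* = 0.00605), and the other called list genes were higher. *Dusp5* was called in the interaction (0.55, SE 0.14, *Padj* = 0.0120), where 1 list gene was called, 3 were without a filter or with all 24 libraries in one fit, and 1 to 3 were with a library left out. It had a mean of 528 ± 21.8 normalized counts in BOTH against 378 ± 21.6 in CHREBP, 308 ± 38.3 in CON and 293 ± 28.0 in BMAL1. In BOTH against BMAL1 10 list genes were called (7 higher and 3 lower), against 10.4% of all genes. In BOTH against CHREBP 4 were called (3 higher and 1 lower), against 0.994%, and 1 or 2 without CHREBP replicate 2 or 3 or BOTH replicate 2 or 3.

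Across the transfected groups, interferon-stimulated genes were ordered as *Btc* was. A score of 20 such genes, the mean of log2(normalized count + 1), was low without transfection, at 3.36 ± 0.15 (SD, n = 4) in BSA and 2.83 ± 0.16 in PAL. With esiRNA it was 4.57 ± 0.31 in BMAL1, 6.10 ± 1.37 for CON, 9.18 ± 0.52 for CHREBP and 10.0 ± 0.41 when both were silenced. All 20 genes were called higher in CHREBP and in BOTH against CON, where 3.42% and 9.73% of all genes were called. In BMAL1 against CON 10 of the 20 were called lower, where 0.490% of all genes were called. The order of the 4 transfected groups by this score was their order by *Btc*. From BSA to PAL the score was lower while mean *Btc* was higher (43.0 ± 17.0 and 58.8 ± 6.95), and the untransfected library with the highest *Btc* (BSA replicate 4, 67.9) had a score of 3.24. Within groups the relation was mixed. In CON the library with the lowest score (replicate 1, 4.21) had the lowest *Btc* (62.8). In CHREBP and BOTH the library with the highest score had the highest *Btc* (135.1 and 161.8) and also the highest *Areg* (121.8 and 154.7). In BMAL1 the library with the highest score (replicate 1, 4.82) had the lowest *Btc* (42.1). In CON the library with the lowest score had the highest *Areg* (128.4), and PAL had *Areg* about as high as CON at scores below 3. The part of the interferon response in the *Btc* and *Areg* values was not tested.

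**Figure D5:**
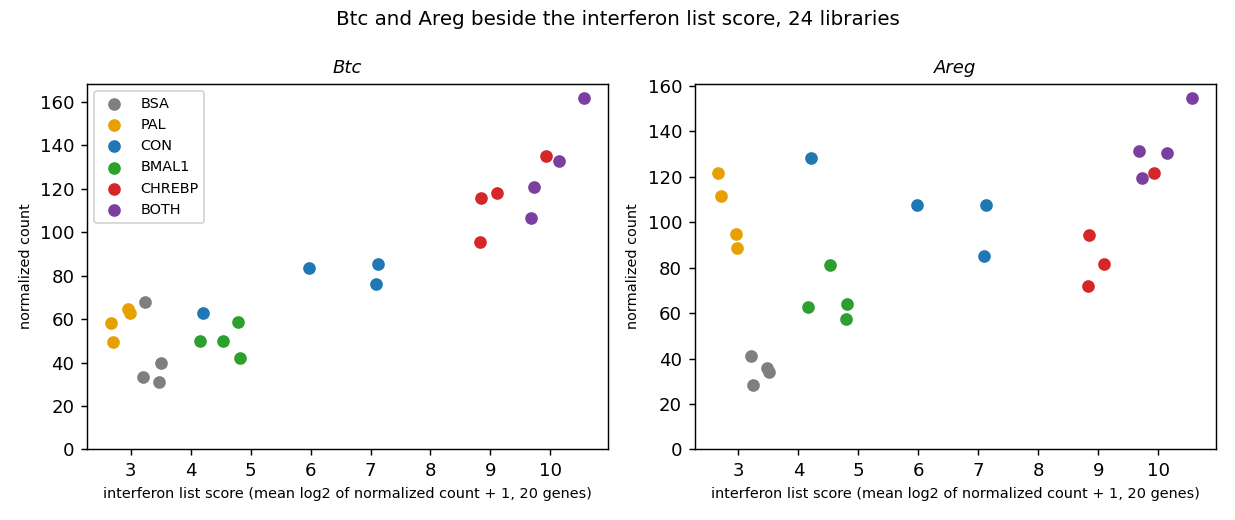
Normalized counts of *Btc* and *Areg* (y axes) against the interferon list score (x axes) in the 24 libraries, colored by group. *Btc* was highest in CHREBP and BOTH, where the scores were above 8, whereas *Areg* was low in BSA and high in PAL at similar scores of about 3.

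The genes most like each family member over the 24 libraries were found among 9379 genes by Pearson's r of log2(normalized count + 1). The libraries share their groups, so these values are descriptions. For *Areg* they were *Plin2*, a lipid droplet coat protein gene (r = 0.931), and *Pno1* (r = 0.915). For *Btc* they were *Oas3* (r = 0.923) and *Dtx3l* (r = 0.916), both known as interferon-induced. *Hbegf* was nearest to *Rsl1d1* (r = 0.883), and *Egfr* was nearest to *Ppl*, which encodes periplakin (r = 0.887). For *Tgfa*, *Erbb2* and *Errfi1* the highest values were lower, with *Fjx1* (r = 0.780), *Usf2* (r = 0.748) and *Slc23a2* (r = 0.732). Within the family, the highest values were those of *Egfr* with *Btc* (r = 0.753) and with *Areg* (r = 0.710), followed by *Areg* with *Btc* (r = 0.671), again over groups that differ in treatment.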

How the data were processed

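Poly(A)-tailed RNA of AML-12 cells was profiled by BRB-seq in 24 libraries. The authors used STAR for alignment to mm10 and HTSeq for counting (featureCounts is also named), and deposited raw whole-number counts per gene, without normalization or pooling. Versions, annotation release, strand setting and handling of molecular identifiers were not given in the sources used here. Summary lines of the table, such as that of unaligned reads (24.9% to 28.0% per library), were left out.

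Counts of the groups compared were fitted with DESeq2 1.42.0 (R 4.3.3) after a filter of a summed count of at least 25. The 4 transfected groups shared 1 fit. *P* values were adjusted by Benjamini-Hochberg over all genes, and a gene was called at an adjusted *P* under 0.1. Where DESeq2 gave no adjusted *P*, none is printed. Normalized counts are counts divided by DESeq2 size factors over all 24 libraries. Alternatives were edgeR 4.0.16 with its quasi-likelihood test and TMM, no filter, a summed count of at least 100, a replicate block, all 24 libraries in one fit, and leaving out each library in turn. The fits were tested on simulated data.

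The family and the lists were chosen with earlier results of these data known. Named were all 10 family members, in each comparison at most 5 called pathway genes of the largest fold change (with others of the list named after their values were seen), and for members with a mean of at least 50 the 2 genes of highest correlation. The floor of 3 counts covers counting error only.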

Additional observations from a re-analysis of the deposited data

Results flagged for a closer look

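Among 50 sets of 4 libraries (a gene in a group), 3 had a library far from the other 3 by Dixon's test, where chance gives about 1 in 20. *Hbegf* in CHREBP replicate 2 was at 314.2 normalized counts, below the other CHREBP libraries at 404.2 to 419.8. *Tgfa* in BMAL1 replicate 1 was at 549.8, above a narrow range of 529.1 to 532.4. *Erbb3* in CON replicate 2 was at 10.8, on low counts.

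The difference between BMAL1 and CON was not the same as that between BOTH and CHREBP for *Areg* (interaction of 1.23 on the log2 scale). For *Btc* the interaction of 0.78 passed by DESeq2 (*Padj* = 0.0987) but under none of the 5 alternatives that kept every library (*Padj* of 0.104 to 0.183, edgeR and 4 DESeq2 fits), nor in 9 of the 13 leave-one-out fits with an adjusted *P*. Total esiRNA dose cannot be told apart from silencing in either.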

How the results depend on the processing

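The number of family genes with a fold change above 0 in PAL against BSA was 7 under every alternative, and the 7 to 7 range held with each library left out. The number called moved in 3 comparisons. In BMAL1 against CON it was 1 by DESeq2 and 0 by edgeR and with the replicate block. In BOTH against CHREBP it was 0, and 1 with all 24 libraries in one fit. In the interaction it was 2, and 1 by edgeR, without a filter, at a summed count of at least 100, with the replicate block and with all 24 libraries in one fit. With each library left out, it ran from 0 to 1 in CON against PAL, BMAL1 against CON, CHREBP against CON and BOTH against CHREBP, from 1 to 2 in BOTH against CON, from 2 to 3 in BOTH against BMAL1 and in the likelihood ratio test, and from 0 to 2 in the interaction. *Areg* in CON against PAL changed sign with a library left out, over a range of −0.0591 (without CON replicate 1) to 0.15, and was never called.

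Deviations of same-numbered libraries from their group means were at most weakly correlated. The mean r of 2 groups ran from −0.0719 (CON with CHREBP) to 0.114 (CHREBP with BOTH), where 1 replicate number reached 0.320. The numbers were not taken as pairs. The replicate block lowered the genes called over all genes from 1828 to 1188 in PAL against BSA, from 325 to 186 in CON against PAL and from 68 to 22 in BMAL1 against CON, where *Areg* kept its log2 fold change of −0.68 but not the call (*Padj* = 0.138). By edgeR the counts were 14 instead of 68 in BMAL1 against CON, 53 instead of 138 in BOTH against CHREBP and 122 instead of 204 in the interaction. Of the pathway list, 1 gene in CON against PAL became 0 with the replicate block, 4 in BOTH against CHREBP became 1 by edgeR, and 1 in the interaction became 3 without a filter or with all 24 libraries. With each library left out, the genes called over all genes ran from 180 (without CON replicate 3) to 343 in CON against PAL, from 56 (without CHREBP replicate 3) to 222 (without BOTH replicate 4) in BOTH against CHREBP and from 104 (without CON replicate 3) to 291 (without BOTH replicate 4) in the interaction, and pathway genes from 1 to 4 in BOTH against CHREBP and from 1 to 3 in the interaction. The cause of these differences was not tested. At 0 to 16 counts per library, *Erbb3* and *Epgn* allow no statement about a difference.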
